A study of Mus musculus with 5 samples.

Results

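8 genes of the TGF-beta and BMP pathway were followed in RNA that an anti-Staufen1 antibody brought down from mouse muscle stem cells: the ligands Bmp6, Tgfb1 and Tgfb2, the latency protein Ltbp1, and the receptors Tgfbr1, Tgfbr2, Bmpr1a and Bmpr2. They were chosen by symbol, with earlier results of this same comparison in view, and all 8 were present among the 11194 genes of the count table. Because the choice used the comparison between genotypes, the differences between genotypes for these 8 genes are given as a description: no p-value is printed for them, and counts of calls stand beside the share over all genes without being read as support. RNA immunoprecipitation was done on stem cells of skeletal muscle from Staufen-/- mice (genotype Stau-/-, 2 libraries) and from wild-type mice (genotype Stau+/+, 3 libraries), and the polyA part of what came down was sequenced after priming with oligo(dT). The stem cells were quiescent, and both groups went through the same antibody. Where the null allele removes Staufen1, the antibody has no target in the Stau-/- libraries, and what came down there is background. A difference between genotypes is thus one between precipitates and is not a measure of expression. Staufen1 recognises double-stranded stretches of RNA. The labels do not give the age or sex of the mice, the design of the null allele or whether each library came from its own animals, so the spread between libraries may be technical. All 5 libraries are precipitates, so how much of an RNA the cells held and how well the antibody recovered it cannot be told apart, nor can fewer cells of a type and less RNA per cell.

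TGF-beta ligands are secreted as latent complexes: the propeptide stays bound to the ligand, and a latent TGF-beta binding protein such as Ltbp1 ties the complex to the matrix until it is activated. A released ligand joins a type II receptor (Tgfbr2 for TGF-beta, Bmpr2 for BMPs) to a type I receptor (Tgfbr1, Bmpr1a), and the type I kinase then phosphorylates Smad transcription factors. In muscle stem cells, TGF-beta signalling is known to restrain myogenic differentiation, and BMP signalling to sustain Id proteins and hold back differentiation.

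Library totals ran from 3091302 to 9370244 counts in the knockout libraries and from 33846391 to 105473455 counts in the wild-type libraries, so every knockout library was the shallower. Levels are CPM, counts scaled to a common library total with TMM factors, where 1 count is worth 0.318 CPM in knockout 2 and 0.00967 CPM in wild type 1. This scaling places the typical gene near no change, so a shift shared by most genes would not show. Stau1 itself had 109 and 111 CPM in the libraries labelled knockout, against 104, 127 and 118 CPM in those labelled wild type. Counts over whole genes cannot show a partial deletion or the loss of the protein, so the targeted gene did not check the labels. KO and WT below stand for the libraries so labelled, and every direction rests on those labels. Pax7, the defining transcription factor of muscle stem cells, was counted in all libraries and averaged 216 ± 50.2 CPM in KO (SD, n = 2) and 239 ± 26.1 CPM in WT (SD, n = 3).

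The start regions of the genes with the largest differences are shown because the title of the series names MyoD, a factor that binds E-boxes (CANNTG). Each is the RefSeq window on GRCm38.p6 from 250 bases before to 50 bases after a gene start, given 5′ to 3′ on the strand of the gene, with E-boxes in capitals. All 8 genes had at least 1 such window, and Ltbp1 and Tgfbr1 had a pair each.
Bmp6, chr13:38345466-38345765, plus strand: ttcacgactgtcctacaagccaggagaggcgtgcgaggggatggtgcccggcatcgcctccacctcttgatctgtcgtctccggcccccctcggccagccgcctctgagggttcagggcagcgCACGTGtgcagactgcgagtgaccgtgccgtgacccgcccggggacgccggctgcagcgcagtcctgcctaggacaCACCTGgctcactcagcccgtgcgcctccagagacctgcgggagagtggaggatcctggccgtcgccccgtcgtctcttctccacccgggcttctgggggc
Tgfb2, chr1:186705940-186706239, minus strand: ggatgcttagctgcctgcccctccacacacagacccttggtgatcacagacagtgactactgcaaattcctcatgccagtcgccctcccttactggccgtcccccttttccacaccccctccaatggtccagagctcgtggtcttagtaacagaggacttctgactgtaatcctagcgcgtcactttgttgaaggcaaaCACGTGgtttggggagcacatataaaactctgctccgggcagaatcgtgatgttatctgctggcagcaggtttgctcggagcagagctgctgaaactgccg
Ltbp1, first start, chr17:75005279-75005578, plus strand: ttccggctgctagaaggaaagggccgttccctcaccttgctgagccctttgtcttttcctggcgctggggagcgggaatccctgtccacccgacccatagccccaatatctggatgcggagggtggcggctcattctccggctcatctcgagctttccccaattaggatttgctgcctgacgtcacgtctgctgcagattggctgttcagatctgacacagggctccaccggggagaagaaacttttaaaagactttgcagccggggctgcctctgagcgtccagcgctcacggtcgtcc
Ltbp1, second start, chr17:75178531-75178830, plus strand: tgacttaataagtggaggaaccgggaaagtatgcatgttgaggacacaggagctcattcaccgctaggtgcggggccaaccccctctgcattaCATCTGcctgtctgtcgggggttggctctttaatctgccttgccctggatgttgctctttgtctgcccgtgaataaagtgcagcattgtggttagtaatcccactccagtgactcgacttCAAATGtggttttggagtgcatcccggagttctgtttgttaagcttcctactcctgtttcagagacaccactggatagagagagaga
The E-box letters, read on both strands, occur in 72.3% of the 32851 mouse windows of this length. The windows of Bmp6 and Tgfb2 both hold CACGTG, a palindromic form of the E-box. It is found in 7.2% of all windows and was singled out here after the sequences were seen. CANNTG includes that form and others, such as CACCTG in the Bmp6 window. Whether MyoD binds any of them was not tested. The first Ltbp1 window holds no E-box and the second holds 2. A short Smad element, CAGAC, occurs once in the Bmp6 window, 2 times in the Tgfb2 window and in 49.6% of all windows. These are matches of letters, not sites, and the counts here are of precipitated RNA. A gene count joins transcripts from both Ltbp1 starts, so the long and short forms of the protein are not told apart.

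Bmp6, which encodes a BMP ligand (chromosome 13, 38345716 to 38499728, plus strand, 7 exon blocks of 2410 bases in all), and Tgfb2 had the lowest ratios of KO to WT among the members. The level of Bmp6 was 33.0 and 35.0 CPM in KO libraries 1 and 2, against 106, 81.9 and 101 CPM in WT libraries 1 to 3. The KO pair lay within 1.06-fold of each other, and the groups did not overlap. The log2 fold change of KO over WT was -1.50 (SE 0.22), a KO level of 0.352 of that in WT, beside 0.356 for Tgfb2. The KO values rest on 315 and 110 counts, and the exact 95% Poisson interval of the shallower one is 28.8 to 42.2 CPM, for counting error only, since reads without molecular identifiers are not independent molecules.

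Tgfb2, a TGF-beta ligand (chromosome 1, 186623186 to 186705992, minus strand), had a like difference with a wider spread. It had 17.3 and 24.5 CPM in KO, against 71.9, 58.8 and 42.1 CPM in WT. WT 1 was 1.71-fold above WT 3, yet the highest KO library stayed below the lowest WT library. The log2 fold change was -1.49 (SE 0.29), and it was -1.23 without KO 1 and -1.74 without KO 2.

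Tgfb1, a TGF-beta ligand (chromosome 7, 25687002 to 25705077, plus strand), showed no such gap. Its levels were 19.7 and 22.9 CPM in KO, against 25.9, 16.2 and 18.5 CPM in WT, so both KO libraries lay inside the WT range. The log2 fold change was 0.07 (SE 0.30), an interval too wide to show that the genotypes are alike.

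The TGF-beta ligands also stood in another ratio to each other. Per kilobase of exon, the level of Tgfb2 was 0.475 and 0.579 times that of Tgfb1 in KO, against 1.50, 1.96 and 1.23 times in WT. Per kilobase, Tgfb1 was the higher of the pair in both KO libraries, and Tgfb2 was the higher in all 3 WT libraries. In CPM without the length, Tgfb2 was the higher in KO 2 as well (24.5 against 22.9 CPM). Which gene is the higher thus depends on the lengths, whereas the difference of the ratio between groups does not. A ratio within a library is free of the scaling between libraries.

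Ltbp1, the latency and storage protein (chromosome 17, 75005568 to 75392512, plus strand, 35 exon blocks), was the best counted member after pooling each group, with 2860 counts over the KO libraries and 98514 over the WT libraries. It had 222 and 236 CPM in KO, against 497, 441 and 459 CPM in WT. Both groups were tight, with a 1.06-fold range in KO and a 1.13-fold range in WT, and they lay apart. The log2 fold change was -1.03 (SE 0.18), a KO level of 0.491 of that in WT. The Ltbp1 to Tgfb1 ratio per kilobase was 2.75 and 2.51 in KO, against 4.69, 6.64 and 6.07 in WT. Its ratio to Tgfb2 was 5.79 and 4.34 in KO, against 3.12, 3.38 and 4.92 in WT, where the groups overlapped and the KO mean was the higher.

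**Figure D1:**
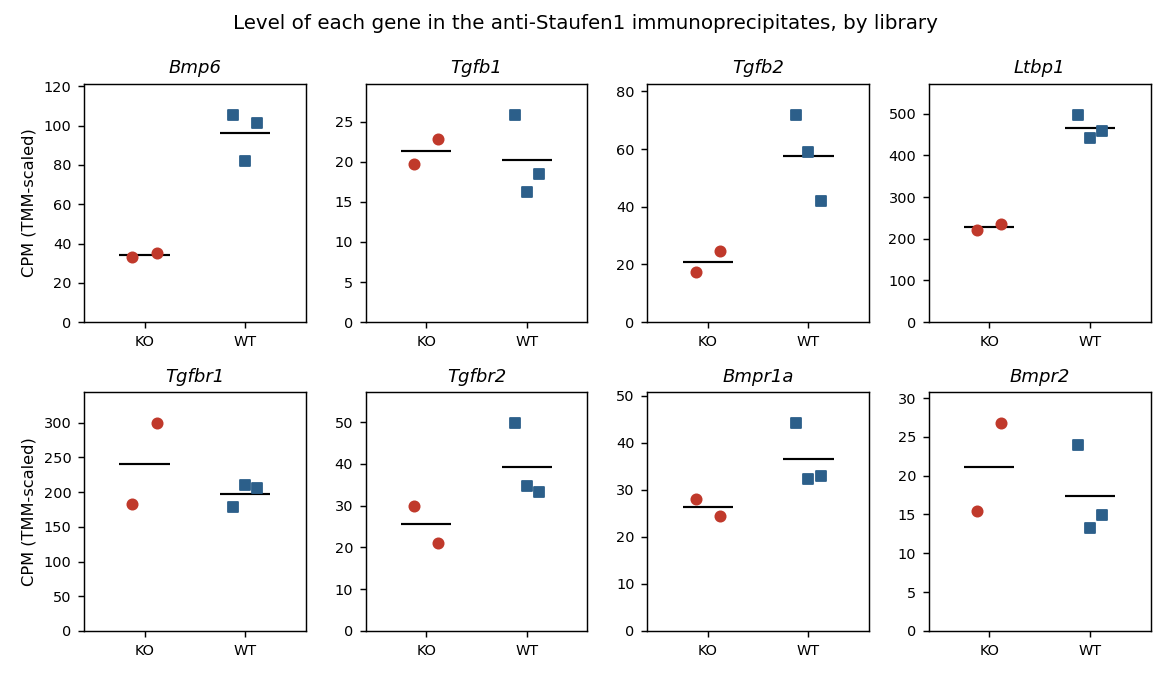
Level of the 8 genes by library, in CPM on TMM-scaled totals (linear axes from 0, one scale per gene); circles are the 2 KO libraries, squares the 3 WT libraries, in replicate order, and lines the group means. For Bmp6, Tgfb2 and Ltbp1 all KO points lie far below the WT points, while Tgfb1, Tgfbr1 and Bmpr2 overlap.

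Among the receptors, Tgfbr1, the type I TGF-beta receptor (chromosome 4, 47353222 to 47414931, plus strand), had 183 and 299 CPM in KO, against 178, 209.9 and 205 CPM in WT. The KO libraries differed from each other 1.64-fold and enclosed 2 of the 3 WT values. Its log2 fold change of 0.28 (SE 0.22) was 0.60 without KO 1 and -0.11 without KO 2, so 1 library sets its direction.

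Tgfbr2, the type II TGF-beta receptor (chromosome 9, 116087698 to 116175363, minus strand), had 30.0 and 21.0 CPM in KO, against 49.7, 34.7 and 33.2 CPM in WT. The groups did not overlap, but KO 1 lay close to WT 3. The log2 fold change was -0.60 (SE 0.28), and -0.39 without KO 2. The 66 counts in KO 2 were the fewest of any member in any library, with an exact 95% Poisson interval of 16.2 to 26.7 CPM.

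Bmpr1a, a type I BMP receptor (chromosome 14, 34410734 to 34503341, minus strand), had 28.0 and 24.5 CPM in KO, against 44.1, 32.3 and 32.9 CPM in WT, with a log2 fold change of -0.47 (SE 0.26). As for Tgfbr2, WT 1 stood above the other WT libraries. Bmpr2, the type II BMP receptor (chromosome 1, 59764279 to 59870549, plus strand), had 15.5 and 26.7 CPM in KO, against 23.9, 13.3 and 14.9 CPM in WT. Its groups overlapped, and its log2 fold change of 0.25 (SE 0.35) was -0.17 without KO 2.

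Type I and type II partners were also set against each other. Tgfbr1 was 4.47 and 10.4 times Tgfbr2 per kilobase in KO, against 2.63, 4.43 and 4.53 times in WT, so KO 2 stood apart and KO 1 lay in the WT range. Bmpr1a was 1.01 and 0.513 times Bmpr2 in KO, against 1.03, 1.36 and 1.24 times in WT. Both ratios thus set KO 2 apart from the other 4 libraries.

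Of the 8 genes, 3 (Bmp6, Tgfb2 and Ltbp1) were called lower in KO by the quasi-likelihood test of edgeR at an adjusted threshold of 0.05 and 0 were called higher; of all genes tested, 1.05% passed as lower and 1.00% as higher. The libraries of KO lay wholly below those of WT for 5 of the 8 and wholly above for 0, against 20.4% and 18.1% of all genes. Since the genes were picked with this comparison known, nothing is read from those counts. At an unadjusted p under 0.05, 4 were lower and 0 higher, against 10.4% and 9.99% of all genes. The median log2 fold change was -0.54 over the 8 genes and -0.0032 over all genes. With limma-voom, 0 of the 8 passed the adjusted threshold, which 0.0715% of all genes passed as lower and 0.125% as higher. At an unadjusted p under 0.05, limma-voom had 3 of the 8, against 5.78% of all genes as lower and 6.62% as higher. With DESeq2 the same 3 genes were called, against 3.88% of all genes as lower and 4.16% as higher.

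These 3 differences stayed below 0 when libraries or depth were changed, and that of Tgfb2 moved most with libraries left out. The reruns share the same counts, so they describe the fit and are not read as support. With each library left out in turn, the log2 fold change was -1.61 to -1.43 for Bmp6, -1.74 to -1.23 for Tgfb2 and -1.07 to -0.97 for Ltbp1. With every library thinned to the 3091302 counts of the shallowest, the values were -1.50 for Bmp6, -1.50 for Tgfb2 and -1.03 for Ltbp1. The count of called members was 1 without KO 1, 2 without KO 2, WT 1 or WT 3, and 3 without WT 2, and is read no further for the reason given above.

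**Figure D2:**
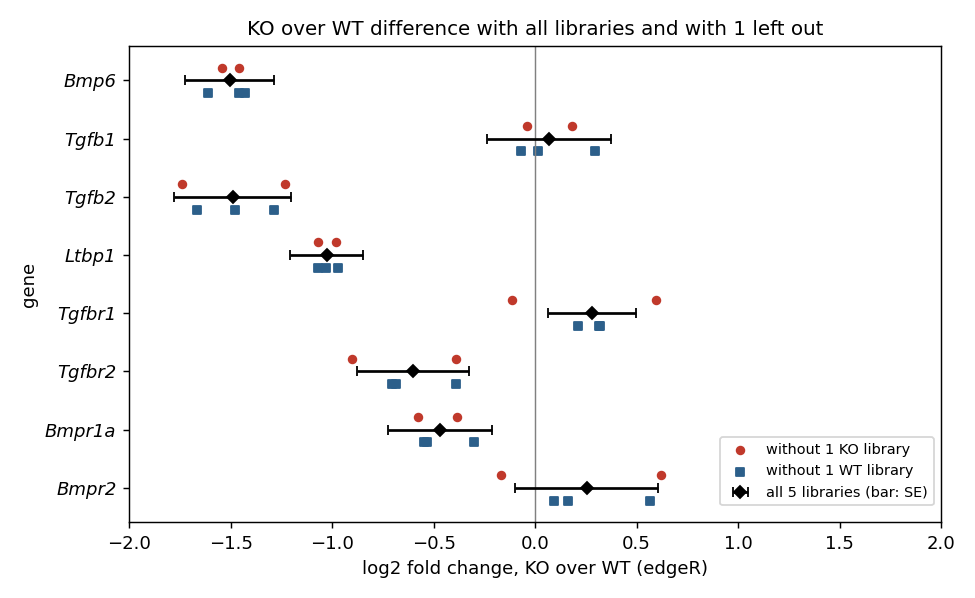
Log2 fold change of KO over WT for the 8 genes: diamonds with bars are the edgeR value and its SE over 5 libraries, circles the values without 1 KO library and squares those without 1 WT library. Bmp6, Tgfb2 and Ltbp1 stay between -1.74 and -0.97, whereas the circles of Tgfbr1, Bmpr2 and Tgfb1 fall on both sides of 0.

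Between genes, levels were compared as CPM per kilobase of merged exon. In KO, Tgfbr1 was highest at 36.9 ± 12.6 (SD, n = 2), followed by Ltbp1 at 21.8 ± 0.932, Bmp6 at 14.1 ± 0.588 and Tgfb1 at 8.33 ± 0.889. These 4 neighbours lay apart in their libraries, and Tgfb1 lay apart from the next gene, Bmpr2 (5.94 ± 2.23). Tgfbr2 (5.32 ± 1.32), Tgfb2 (4.42 ± 1.08) and Bmpr1a (4.13 ± 0.386) followed, with neighbours that overlapped. In WT, Ltbp1 led at 44.4 ± 2.75 (SD, n = 3) and overlapped with Bmp6 at 39.9 ± 5.22. Tgfbr1 at 30.3 ± 2.64 lay apart from both neighbours, and Tgfb2 at 12.2 ± 3.16 overlapped with Tgfbr2 at 8.19 ± 1.90. Tgfb1 (7.89 ± 1.98), Bmpr1a (5.74 ± 1.04) and Bmpr2 (4.88 ± 1.61) overlapped with their neighbours. Tgfb2 thus had rank 7 in KO and rank 4 in WT. In WT, Ltbp1, Bmp6 and Tgfbr1 stood at percentiles 87.9, 86.6 and 83.0 of all genes, and Bmpr2 at percentile 40.1. Bmp6 stood at percentile 68.2 in KO, and Tgfb2 at percentile 37.3 in KO and 64.7 in WT. Exon lengths ran from 2410 bases for Bmp6 to 10480 for Ltbp1, with a median of 4755 against 3804.5 over all genes.

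**Figure D3:**
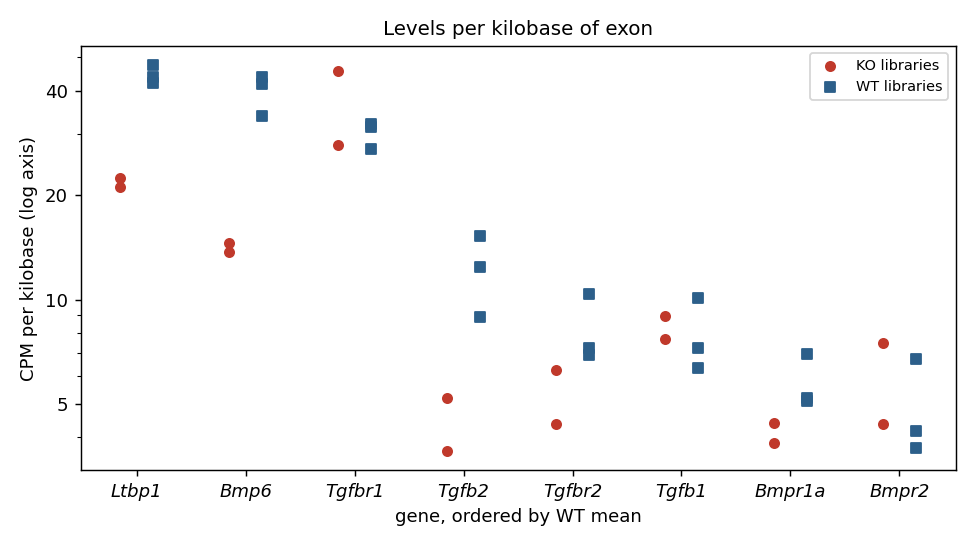
Level per kilobase of exon on a log axis, with genes ordered by WT mean; circles are KO libraries and squares WT libraries. Tgfbr1 is highest in KO at 36.9 on average and Ltbp1 in WT at 44.4, and Bmp6, Tgfb2 and Ltbp1 show the widest gaps.

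Over the 5 libraries, the patterns of Tgfbr2 and Bmpr1a were the closest pair among the members, with a root mean square difference of 0.135 in centred log2 CPM. Bmp6 and Ltbp1 differed by 0.238, and Bmp6 and Bmpr2, the most distant pair, by 0.906. Among all genes with a symbol, the 2 closest to Bmp6 were Olfml2b, a secreted olfactomedin-domain protein (0.0647), and Chrna1, a subunit of the muscle acetylcholine receptor (0.120). Smoc1, a secreted calcium-binding protein (0.129), and Myo19, a mitochondrial myosin (0.172), were closest to Tgfb2. Mnd1 (0.0390) and the phosphatase Dusp14 (0.0608) were closest to Ltbp1. In KO 1 and KO 2, Smoc1 had 1.6 and 2.9 CPM, Myo19 1.3 and 2.5 CPM, and Mnd1 2.0 and 2.2 CPM. The likeness of these genes thus rests on few KO counts. The typical gene differed by 0.775 from Bmp6, 0.798 from Tgfb2 and 0.568 from Ltbp1. For the others the pairs were Ywhah and Trp53rka (Tgfb1), Mrps24 and Thap1 (Tgfbr1), D17Wsu92e and Rbms3 (Tgfbr2), Lrig1 and Akr1a1 (Bmpr1a), and Gng7 and Aoc3 (Bmpr2), at 0.0223 to 0.0731. A pattern over 5 libraries of 2 groups is a description only.

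The rest of the pathway was examined in 7 lists by role, of which 108 of 141 listed genes were analysed. The lists too were chosen with earlier results of these data known. The counts and p-values given for them are thus a description and are not read as support. By the edgeR test, 8 of the 108 fell in KO, 0 rose and 100 passed neither way, beside 1.05% and 1.00% of all genes; at an unadjusted p under 0.05, 32 were lower and 5 higher, beside 10.4% and 9.99% of all genes. Their median log2 fold change was -0.26. DESeq2 called 19 lower and 1 higher (Eng), and limma-voom called 0, with 23 lower and 2 higher at an unadjusted p under 0.05. The number called lower was 0 without KO 1, without WT 1 or without WT 3, 1 without KO 2 and 13 without WT 2.

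Among 21 other genes of latency, storage and activation, 2 fell by edgeR, 0 rose and 19 did not pass (median -0.43), and both that fell were relatives of Ltbp1. DESeq2 called 7 of the list lower and 0 higher, beside 3.88% and 4.16% of all genes. At an unadjusted edgeR p under 0.05, 9 were lower and 1 higher, beside 10.4% and 9.99% of all genes. Ltbp4, the most abundant of the list per kilobase, had 985 and 1111 CPM in KO, against 1926, 1649 and 1881 CPM in WT (log2 fold change -0.80, SE 0.18, edgeR adjusted p = 0.0387). Ltbp2 had 3.56 and 2.86 CPM in KO, from 34 and 9 counts, against 13.4, 10.1 and 12.9 CPM in WT (-1.89, SE 0.45, edgeR adjusted p = 0.0459). Ltbp3, the remaining relative, added for completeness after its values were seen, averaged 264 ± 45.4 CPM in KO (SD, n = 2) and 344 ± 38.3 CPM in WT (SD, n = 3), with a log2 fold change of -0.38 that did not pass (edgeR adjusted p = 0.282). Over 14 alternatives, the edgeR, DESeq2 or limma adjusted p was 0.00059 to 0.145 for Ltbp4 and 0.0035 to 0.235 for Ltbp2; both calls were lost with limma-voom and without KO 1, KO 2, WT 1 or WT 3. Ltbp2 was called in 6 of the 14, and was also lost without WT 2 and when thinned, and was not tested under the minimum of 10 counts in every library. The 14 include a fit without the low count filter, which repeats the main fit because that filter removed 0 genes. Lrrc32, which displays latent TGF-beta on cell surfaces, averaged 77.3 ± 15.3 CPM in KO and 47.0 ± 15.9 CPM in WT (0.72, edgeR adjusted p = 0.152), and was named after its values were seen.

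Of 12 other receptors and co-receptors, 1 fell, 0 rose and 11 passed neither way (median -0.09). Tgfbr3, the betaglycan co-receptor that presents TGF-beta2 to its receptors, had 168 and 130.1 CPM in KO, against 358, 225 and 278 CPM in WT (-0.94, SE 0.22, edgeR adjusted p = 0.0477, and up to 0.203 over the alternatives). Its call was also lost under each of the 3 other scalings. Eng, the endoglin co-receptor of endothelial cells, had 189.97 and 173 CPM in KO, against 111, 88.0 and 121 CPM in WT, and did not pass (0.77, edgeR adjusted p = 0.0544). Rgmb, a BMP co-receptor with the highest level of the list per kilobase over all 5 libraries, though below Eng in KO (36.3 against 46.9 CPM per kilobase), had a log2 fold change of -0.81 (edgeR adjusted p = 0.0636). Of 10 other ligands, 0 passed by edgeR or DESeq2, and 1 had an unadjusted p under 0.05 (median -0.21). It was Inhba, the activin A subunit, with 11.9 ± 4.80 CPM in KO (SD, n = 2) and 5.51 ± 1.58 CPM in WT (SD, n = 3), a log2 fold change of 1.08 (edgeR adjusted p = 0.206). Lefty1, an antagonist ligand, had -1.16 (edgeR adjusted p = 0.25), and Bmp4, the most abundant ligand of the list per kilobase, -0.21 (edgeR adjusted p = 0.605).

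Smads, the transcription factors downstream, gave 0 of 7 past the threshold by edgeR or DESeq2, with 2 lower at an unadjusted p under 0.05 and a median of -0.32. Smad4, the shared partner, had -0.53 and Smad3, of the TGF-beta branch, -0.56 (edgeR adjusted p = 0.208 and 0.234). Of 24 regulators of Smads and receptors, 1 fell and 23 passed neither way (median -0.17): Tgif1, a Smad2 corepressor, had 245 and 220.5 CPM in KO, against 385, 400.5 and 380 CPM in WT (-0.74, SE 0.18, edgeR adjusted p = 0.049, and up to 0.183 over the alternatives, with the call lost under the 3 other scalings). The Tgif1 call held in 5 of the 14 alternatives, among them the repeat of the main fit. It was also lost with limma-voom and with any 1 library left out. Pmepa1, a TGF-beta-induced inhibitor of Smad signalling, averaged 1326 ± 64.9 CPM in KO and 2151 ± 279 CPM in WT without passing (-0.70, edgeR adjusted p = 0.0621). Of 12 extracellular antagonists, 0 passed by edgeR and 3 were lower by DESeq2, with 6 lower at an unadjusted p under 0.05 and a median of -0.48. The chordin-like Chrdl2 (-0.71) and Twsg1, a BMP-binding protein (-0.81), had the smallest p values (edgeR adjusted p = 0.0544 and 0.0607).

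Of 22 target genes, 4 fell, 0 rose and 18 did not pass, and their median was -0.21. They were Col1a1, a collagen I chain (193.9 ± 22.3 CPM in KO and 474 ± 149 CPM in WT, -1.29), Ctgf, a matricellular protein (-1.13), the transcription factor Sox9 (-1.02) and Fn1, fibronectin (-0.92). Their edgeR adjusted p values were 0.0198, 0.0357, 0.0198 and 0.0281. Each call was lost with limma-voom, without KO 1, without WT 1 and without WT 3. Those of Col1a1, Sox9 and Fn1 were also lost without KO 2. Id3, a BMP target with the highest level of the list per kilobase over all 5 libraries, though below Junb in WT (1449 against 1602 CPM per kilobase), averaged 2147 ± 133 CPM in KO and 2596 ± 25.4 CPM in WT (-0.27, edgeR adjusted p = 0.388), and Id1, named after its values were seen, had 0.28 (edgeR adjusted p = 0.437).

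**Figure D4:**
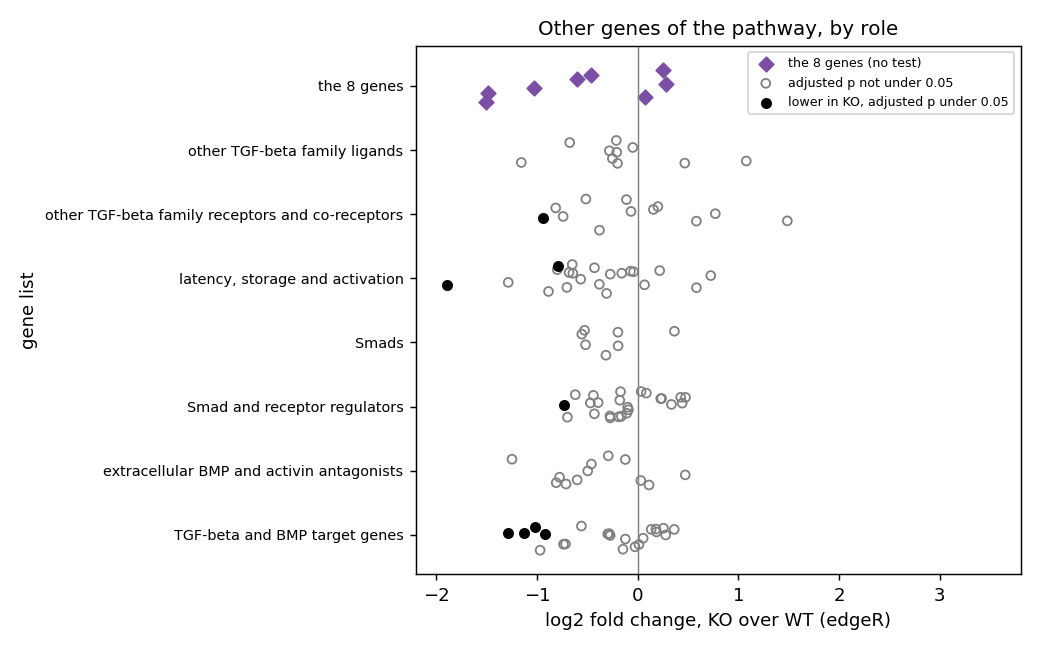
Log2 fold change of KO over WT for the 8 genes (diamonds, no test) and for 108 other pathway genes by list; filled points had an edgeR adjusted p under 0.05, and vertical scatter within a list carries no value. All 8 filled points lie left of 0, in 4 of the 7 lists.

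Markers of some cell types moved with the genotypes in the same libraries, and the sums of others overlapped between the groups. The 10 stem cell markers summed to 3823 and 4133 CPM in KO, against 6685, 6141 and 6245 CPM in WT, and 2 of them (Myod1 and Sdc4) fell. Pax7 and Itga7 overlapped between the groups. Sdc4, the most abundant of the 10 in CPM, averaged 1052 CPM in KO and 2016 CPM in WT, and so weighs most in the sum. Chrdl2 of this list is also in a pathway list, as are Dcn, Acta2 and Tagln of the lists below. The 12 endothelial markers summed to 3386 and 3093 CPM in KO, against 1954, 1448 and 1583 CPM in WT, and 6 of them rose. The 10 markers of fibro-adipogenic progenitors, collagen-making cells, summed to 1485 and 1559 CPM in KO, against 2921, 2032 and 2525 CPM in WT. 2 of them fell (Col1a1, also a target gene above, and Col3a1) and 1 rose (Ly6a). Col3a1, the most abundant of these 10 in CPM, averaged 511 CPM in KO and 1103 CPM in WT, and so weighs most in the sum. Pdgfra, Dcn, Lum, Mfap5, Cd248 and Pi16 overlapped between the groups. Markers of muscle fibres summed to 367 and 2349 CPM in KO, against 522, 459 and 539.7 CPM in WT, over 7 of 10 listed, so KO 2 stood alone there. Those of red blood cells summed to 471 and 805 CPM in KO and to 216 to 295 CPM in WT (4 of 6 listed), and 3 of them, all globin genes, rose. Pericyte and smooth muscle markers (10 of 10) summed to 1716 to 1857 CPM in KO and 1403 to 1677 CPM in WT. Macrophage markers (8 of 10) summed to 380 to 389 CPM in KO and 257 to 399 CPM in WT, and Schwann cell markers (6 of 6) to 485 to 579 CPM in KO and 390 to 511 CPM in WT, with 1, Mbp, higher by the test. No analysed marker was at 0 in any library. The part of these cell types in the values of Bmp6, Tgfb2, Ltbp1 and the pathway lists was not tested.

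**Figure D5:**
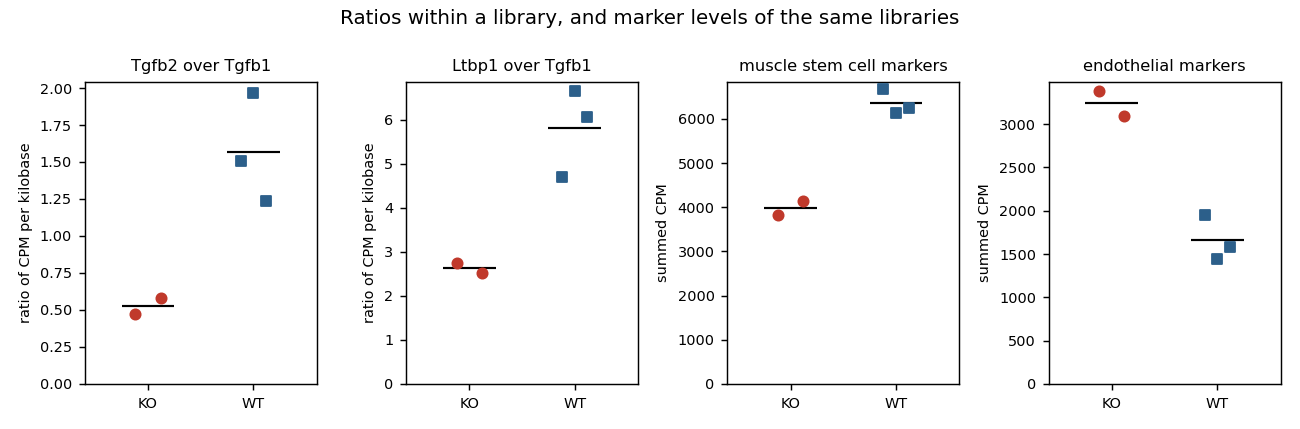
Per-library ratios of CPM per kilobase (Tgfb2 over Tgfb1, Ltbp1 over Tgfb1) and summed CPM of 10 stem cell and 12 endothelial markers; circles are KO libraries, squares WT libraries, lines group means, axes from 0. Both ratios and the stem cell sum are lower in KO, with 0.475 and 0.579 for the ligands against 1.23 to 1.96 in WT, and the endothelial sum is higher in KO.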

How the data were processed

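Anti-Staufen1 precipitates were sequenced as 5 libraries, 2 labelled Stau-/- and 3 labelled Stau+/+. Per the labels' protocols, 100 pg of RNA was reverse-transcribed with oligo(dT) priming, libraries were amplified over 13 to 15 cycles, and 101 bp paired-end reads were made. The build was mm10 and the tools edgeR, featureCounts (Subread), STAR and Trim Galore, per the submitters' processing notes. Not given in the sources used here are versions, annotation and strandedness. The authors deposited raw counts per gene with a merged exon length. Genes with low values are not in that table: the third-highest CPM of a gene was never below 3.02, and never below 15.8 for the 8 genes. The 3 WT libraries could meet such a floor alone, and the 2 KO libraries could not. A gene low in KO could thus enter through WT, while a gene present only in KO would be missing.

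Counts were analysed in R 4.3.3 with edgeR 4.0.16 (filterByExpr, which removed 0 genes, TMM, estimateDisp, glmQLFit, two-sided glmQLFTest for KO over WT), with Benjamini-Hochberg adjustment over all 11194 genes and a threshold of 0.05. SE is the coefficient over the square root of F. DESeq2 1.42.0, limma-voom (limma 3.58.1), other scalings and filters, thinning, left-out libraries and the replicate number as a block were alternatives. Patterns used log2(CPM + 0.5). The edgeR script was checked on simulated counts. The members, gene lists and the rule for named genes (per list up to 5 genes past the threshold, at least 2 by p, and the one with the highest mean level per kilobase over the 5 libraries) were chosen with earlier results of these data known. Of 10826 Entrez identifiers, 10824 matched RefSeq on GRCm38.p6, through which Hjv and Ccn2 were found as Hfe2 and Ctgf. By span, Bmp6, Tgfb2, Ltbp1, Tgfbr1 and Tgfbr2 overlap noncoding genes or pseudogenes there, so a share of their reads is uncertain.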

Additional observations from a re-analysis of the deposited data

How the results depend on the processing

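Bmp6, Tgfb2, Ltbp1, Tgfbr2 and Bmpr1a kept a log2 fold change below 0 in all 14 alternatives. Among the 14, the fit without the low count filter repeats the main fit, since that filter removed 0 genes. With all 5 libraries the median over the 8 genes was -0.63 to -0.48, and with 1 left out -0.74 to -0.35. The value of Tgfb1 turned to -0.04 without KO 2 and -0.069 without WT 2, that of Tgfbr1 to -0.11 and that of Bmpr2 to -0.17, both without KO 2; their highest values were 0.29 (Tgfb1, without WT 1), 0.60 (Tgfbr1) and 0.62 (Bmpr2), both without KO 1. Over the whole table, 112 genes were called higher in KO and 118 lower. DESeq2 gave 466 and 434, and limma-voom 14 and 8. Total counts in place of TMM gave 143 and 93, a lower share of 39.4% in place of 51.3%. With 1 library left out, 23 to 172 were higher and 11 to 176 lower, fewest without WT 3. The 8 pathway genes called lower became 19 with DESeq2 (and 1 higher), 0 with limma-voom and 0 to 13 with 1 library left out, where 0 were higher. With the replicate number as a block, 324 genes were higher and 288 lower, and 1 and 14 pathway genes; the 3 called members stayed called. The labels do not say that a number marks a shared animal or day. Deviations of same-numbered libraries correlated at 0.0508 and 0.0446. With 2 KO libraries the deviations from their mean mirror each other, so these values cannot show whether animals or days were shared. The cause of these shifts was not tested. Libraries of one group were not copies of each other, with chi-square values of 17.7 to 258.5 per degree of freedom. Depth limits KO 2 most, where 0 counts allow up to 0.954 CPM.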
